A study of Mus musculus with 7 samples.

Results

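The alcohol and aldehyde dehydrogenases described here are 9 genes measured in the liver of old female mice: the alcohol dehydrogenases Adh1, Adh4, Adh5 and Adh7, and the aldehyde dehydrogenases Aldh1a1, Aldh1a7, Aldh2, Aldh3a2 and Aldh9a1. They were taken as every probe set, outside the Affymetrix controls, that the platform annotation pairs with exactly 1 gene symbol from this list. All 9 genes had at least 1 such probe set, 15 probe sets in all, of 8251 named genes and 10833 probe sets with 1 symbol. Total liver RNA of 7 samples was hybridised to Affymetrix mouse U74Av2 arrays, 1 array per sample. The animals were phenotypically normal females, +/+ or +/df at the Ames dwarf locus, with free access to standard pelleted food, killed at 24 to 26 months of age. The description field of the same labels names the dwarf genotype df/df instead, and the group was kept as the titles and source names give it. The titles number the animals 1, 2, 3, 4, 6, 7 and 8, and these numbers name the replicates. With 1 group there was no treated or mutant sample to compare, so the data give the signal of each gene and its spread between animals. Separate animals are implied by the numbered titles but not stated, so p-values measure the spread between these samples, which may be technical in part.

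Alcohol dehydrogenases are zinc enzymes of the cytosol that pass hydrogen from an alcohol to NAD+ and so make an aldehyde or ketone. Aldehyde dehydrogenases oxidise the aldehyde onward to an acid, in the cytosol, the mitochondrion or the endoplasmic reticulum. In the liver this pair of steps turns ethanol into acetate, retinol into retinoic acid, and clears formaldehyde, fatty aldehydes and aldehydes from lipid peroxidation.

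Signals below are the deposited intensities after scaling each array to the same trimmed mean of 500.4, with the mean ± SD over 7 arrays. The floor, under which values were set equal before logs were taken, lay at 50.04. A signal depends on the probes of its probe set, so signals of different genes do not rank transcript amounts. The share of named probe sets below the floor was 25.9% to 27.9% per array. By the mean log2 signal of 9 bacterial spike-in probe sets the arrays fell into 2 sets: replicates 6 to 8, at 10.20 to 10.24, and replicates 1 to 4, at 10.64 to 10.97. The 3' to 5' signal ratio, a measure of RNA integrity and labelling, was 0.788 to 0.907 for the Gapdh control and 1.31 to 1.78 for the beta-actin control. The labelled tissue was checked by its markers: all 9 hepatocyte markers passed the filter on signal, with Alb at 31853 ± 3080. Their summed signal ranged from 162090 on replicate 8 to 194418 on replicate 3. Of 8 skeletal muscle markers, 6 were higher on replicates 1 and 2 than on every other array, and among them Acta1, the skeletal muscle actin, had 5991 and 2034 on those arrays against at most 100.4 on the others. For Pvalb the gap was small, with 1417 and 1726 against at most 1362 on the others, and Ckm and Myh4 were lowest on replicate 1, at 144 and 103. The summed signal of all 8 was lowest on replicate 8, at 2321, and highest on replicate 1, at 11275, where Acta1 made up most of it. Pericentral hepatocyte markers summed to 49112 on replicate 6 and 65516 on replicate 3, and periportal ones to 79054 on replicate 8 and 93335 on replicate 3. Alb and Cps1, which are in both the hepatocyte and the periportal list, had 37770 and 25120 on replicate 3 and made up most of that periportal sum. Of the other cell types, the summed signals ran from 8221 to 10459 for stellate cells and matrix, 7176 to 9606 for macrophages, 2928 to 4657 for endothelium, 266 to 680 for cholangiocytes, 505 to 780 for T and NK cells and 1550 to 1861 for B and plasma cells. No cholangiocyte marker passed the filter, and Muc1 alone had 424 of their highest sum, on replicate 2. Of 9 measured T and NK cell markers, 4 were below the floor on all arrays. In bulk tissue, fewer cells of a type and less RNA per cell cannot be told apart.

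**Figure D1:**
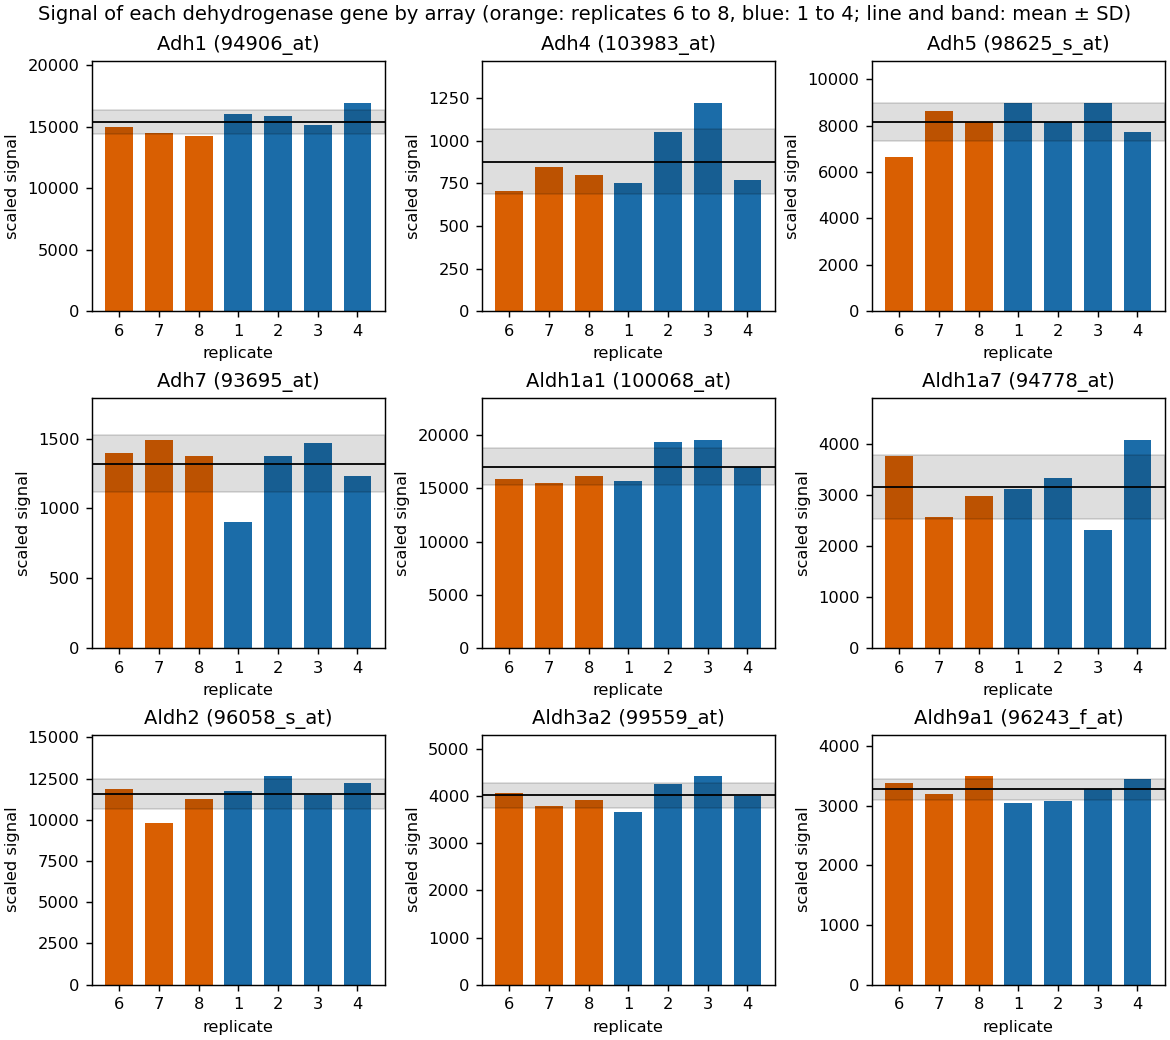
Scaled signal (y axis, from 0) of the brightest probe set of each of the 9 genes on the 7 arrays (x axis, replicates 6 to 8 in orange and 1 to 4 in blue), with the mean as a line and ± SD as a band. Adh1 and Aldh9a1 stayed within 1.19-fold and 1.15-fold, while Adh7 was low on replicate 1 and Aldh1a7 low on replicate 3.

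Among the alcohol dehydrogenases, Adh1 was bright and even between animals. Adh1 (NCBI gene 11522) is the class I enzyme that oxidises ethanol and retinol in the liver. Its single probe set had a lowest signal of 14210 on replicate 8, a median of 15131 and a highest of 16934 on replicate 4. The mean was 15368 ± 957 (SD, n = 7) and the highest signal was 1.19 times the lowest. Its log2 SD of 0.09 was smaller than that of most genes, at the 6.32th percentile of all 4481 tested genes. Relative to the SD expected at its level, it was at the 21.5th percentile. All of replicates 6 to 8 lay below all of replicates 1 to 4, as 7.34% of all tested genes did in one direction or the other.

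Adh5 (NCBI gene 11532) is the class III enzyme, which oxidises the glutathione adduct of formaldehyde and reduces S-nitrosoglutathione. Its brighter probe set, 98625_s_at, ranged from 6651 on replicate 6 through a median of 8143 to 8980 on replicate 3, with a mean of 8170 ± 818. Its other probe set, 95765_at, ranged from 4103 on replicate 2 through a median of 4291.5 to 5056 on replicate 1, with a mean of 4370 ± 335. Both probe sets were high on replicate 1, but only the first was lowest on replicate 6. The _s_at suffix of the first marks probes that may read more than 1 transcript. Without replicate 6 the log2 SD of Adh5 was 0.09, against 0.15 with it.

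Adh4 (NCBI gene 26876), the class II enzyme and an efficient retinol oxidiser, varied more. Its brighter probe set ranged from 706 on replicate 6 through a median of 797 to 1223 on replicate 3, a 1.73-fold range with a mean of 878 ± 189. Its second probe set ranged from 439 on replicate 6 through 662 to 989 on replicate 3, a 2.25-fold range with a mean of 695 ± 184. Both were lowest on replicate 6 and highest on replicate 3. They parted on replicate 2, where the brighter probe set had its second highest signal, 1051, and the other its second lowest, 549.

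Adh7 (NCBI gene 11529), the class IV enzyme, is best known from the stomach and other epithelia, where it oxidises retinol and ethanol. Its 1 probe set had 902 on replicate 1 and 1230 to 1494 on the other 6 arrays, with a median of 1379 and a mean of 1321 ± 203. The spread turned on replicate 1: the log2 SD was 0.25 with that array and 0.10 without it. Replicate 1 was also the array with the highest skeletal muscle signal, and the part of that in the low Adh7 value was not tested. Of 7 measured stomach and gut epithelium markers, Tff2, Atp4b, Muc5ac and Vil1 were below the floor on all 7 arrays, while Tff1 had 1175 ± 140 and Atp4a 351 ± 26.9. The sum over these 7 markers was lowest on replicate 1, at 1435, and highest on replicate 6, at 2010, and its part in the Adh7 signal was not tested.

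Among the aldehyde dehydrogenases, Aldh2 and Aldh1a1 gave bright signals. Aldh2 (NCBI gene 11669) is the mitochondrial enzyme that clears acetaldehyde made from ethanol. Its brightest probe set, 96058_s_at, ranged from 9786 on replicate 7 through a median of 11724 to 12639 on replicate 2, with a mean of 11574 ± 907. The other 2 probe sets had means of 8184 ± 562 (96057_at) and 3150 ± 540 (161997_f_at). Each probe set ordered the animals in its own way: 96057_at was highest on replicate 6, at 9138, and 161997_f_at was lowest there, at 2461. On replicate 7, where 96058_s_at was lowest, 161997_f_at had its second lowest signal, 2714, and 96057_at its second highest, 8717. Without replicate 7 the log2 SD of Aldh2 was 0.06, against 0.12.

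Aldh1a1 (NCBI gene 11668) is the cytosolic enzyme that oxidises retinal to retinoic acid as well as other aldehydes. Its bright probe set, 100068_at, ranged from 15546 on replicate 7 through a median of 16153 to 19589 on replicate 3, with a mean of 17037 ± 1741. Replicates 2 and 3, at 19378 and 19589, lay apart from the other 5, which had 15546 to 17034. Its second probe set, 161956_at, had a mean of only 89.6 ± 24.6 and did not pass the filter of 200.1, so it was not used for the spread of Aldh1a1.

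Aldh1a7 (NCBI gene 26358) is a close paralogue of Aldh1a1 in rodents and varied most among the aldehyde dehydrogenases on their brightest probe sets. It ranged from 2304 on replicate 3 through a median of 3118 to 4084 on replicate 4, a 1.77-fold range with a mean of 3162 ± 627. It was lowest on replicate 3, the array on which Aldh1a1 was highest. The genes lie on chromosome 19 with no protein-coding gene annotated between them, on opposite strands, in the RefSeq table of GRCm38.p6. The 150 bases before each start are shown because the copies are nearly alike next to the start. Capitals mark the longest run shared by both, and Aldh1a1 is given at the second of its 2 listed starts (RefSeq, GRCm38.p6; Aldh1a1 chr19:20601818-20601967, plus strand; Aldh1a7 chr19:20727557-20727706, minus strand).
Aldh1a1: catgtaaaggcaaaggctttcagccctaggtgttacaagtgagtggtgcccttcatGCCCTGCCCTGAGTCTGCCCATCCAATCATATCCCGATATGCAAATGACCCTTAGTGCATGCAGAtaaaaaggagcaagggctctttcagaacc
Aldh1a7: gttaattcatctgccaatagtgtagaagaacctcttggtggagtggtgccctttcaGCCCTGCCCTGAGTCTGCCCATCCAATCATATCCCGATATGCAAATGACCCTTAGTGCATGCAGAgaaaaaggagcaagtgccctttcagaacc
The shared run is 65 bases long. Of the 100 bases before the start 94 were identical without gaps, and of all 250 bases before it 129 were. At its first listed start, Aldh1a1 shared 63 of 250 bases with Aldh1a7.

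Short motifs were searched by their letters, on both strands, in the 250 bases before the start of the 8 members found in the RefSeq promoter table. The octamer ATGCAAAT was found in Aldh1a1 and Aldh1a7 alone, at base -56 from the start in both, and in 1.60% of all 32851 windows in the table. It is part of the shared run, so the matches are not separate observations. CCAAT was found in Aldh1a1, Aldh1a7, Aldh3a2, Aldh9a1, Adh4 and Adh7, and in 33.8% of all windows. The letters TATAAA were found in Adh5, Adh7 and Aldh1a7, at bases -207, -202 and -244 from the start, and in 12.4% of all windows. The E-box CACGTG was found in Aldh3a2 alone, and in 6.02% of all windows. The GC box GGGCGG was found in Aldh3a2 and at 1 of the 2 starts of Adh5, and in 32.7% of all windows. Matches of different motifs did not overlap. A match in letters is a description and does not show that a factor binds there. The Adh4 stretch is shown beside them because its brighter probe set, like Aldh1a1, was highest on replicates 2 and 3. The other Adh4 probe set was low on replicate 2. Capitals mark the CCAAT box of Adh4, which runs on the other strand (RefSeq, GRCm38.p6, chr3:138415347-138415496, plus strand).
Adh4: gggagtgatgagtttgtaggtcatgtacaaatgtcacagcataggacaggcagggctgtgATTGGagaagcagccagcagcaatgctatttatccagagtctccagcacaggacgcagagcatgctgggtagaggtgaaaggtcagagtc
The 4 alcohol dehydrogenases lie on chromosome 3 in the order Adh7, Adh1, Adh4 and Adh5, with Adh6a and Adh6b between Adh1 and Adh4 and no annotated gene between Adh4 and Adh5.

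The brighter probe set of Aldh3a2 and the probe set of Aldh9a1 varied little, and the second probe set of Aldh3a2 varied more. Aldh3a2 (NCBI gene 11671) oxidises fatty aldehydes at the endoplasmic reticulum. Its brighter probe set ranged from 3673 on replicate 1 through a median of 4001 to 4425 on replicate 3, with a mean of 4020 ± 262. The second probe set, 161401_f_at, carries a suffix for probes that can read a gene family, and ranged from 716 on replicate 7 to 1595 on replicate 8, with a mean of 1068 ± 297. Its highest signal was 2.23 times its lowest. Aldh9a1 (NCBI gene 56752) oxidises 4-trimethylaminobutyraldehyde in carnitine synthesis. Its probe set, also of the _f_at kind, ranged from 3042 on replicate 1 through a median of 3280 to 3496 on replicate 8, a 1.15-fold range with a mean of 3276 ± 180.

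The spread between animals was then set against that of other genes of the same level. All 9 genes passed the filter of 200.1 on mean signal. With limma's intercept-only model and an upper-tail F test, 0 of 9 had an adjusted p under 0.05 (Benjamini-Hochberg over 4481 genes), against 0% of all tested genes. At an unadjusted p under 0.05 the count was also 0 of 9, against 6.72% of all tested genes, or 301. Aldh1a7 had the most spread for its level, with a log2 SD of 0.29, 1.94 times that expected (unadjusted p = 0.072, limma adjusted p = 0.840). Adh4 followed with a log2 SD of 0.29, 1.73 times that expected (limma adjusted p = 0.947), and Adh7 with 0.25, 1.55 times (limma adjusted p = 0.990). Aldh9a1, Aldh3a2 and Adh1 lay at the other end, with log2 SDs of 0.08, 0.09 and 0.09, or 0.533, 0.643 and 0.714 times that expected. The median log2 SD was 0.14 over the 9 genes and 0.18 over all tested genes, without regard to level. As a multiple of the SD expected at each gene's level, the medians were 1.13 and 0.991. When each of the 5147 probe sets past the filter was tested on its own, 2 of the 14 member probe sets had an unadjusted p under 0.05, against 6.66% of all probe sets, and both were the dimmer ones of their gene. These were 161401_f_at of Aldh3a2 (limma adjusted p = 0.653) and 103982_s_at of Adh4 (limma adjusted p = 0.696). Without replicates 1 and 2, the arrays with high Acta1, 0 of 9 genes had an adjusted p under 0.05 with limma, against 0% of all genes tested on the other 5 arrays. At an unadjusted p under 0.05 it was 1 of 9, Aldh1a7, against 6.45% of those genes. The log2 SD of Aldh1a7 was then 0.35 and that of Adh7 0.11.

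**Figure D2:**
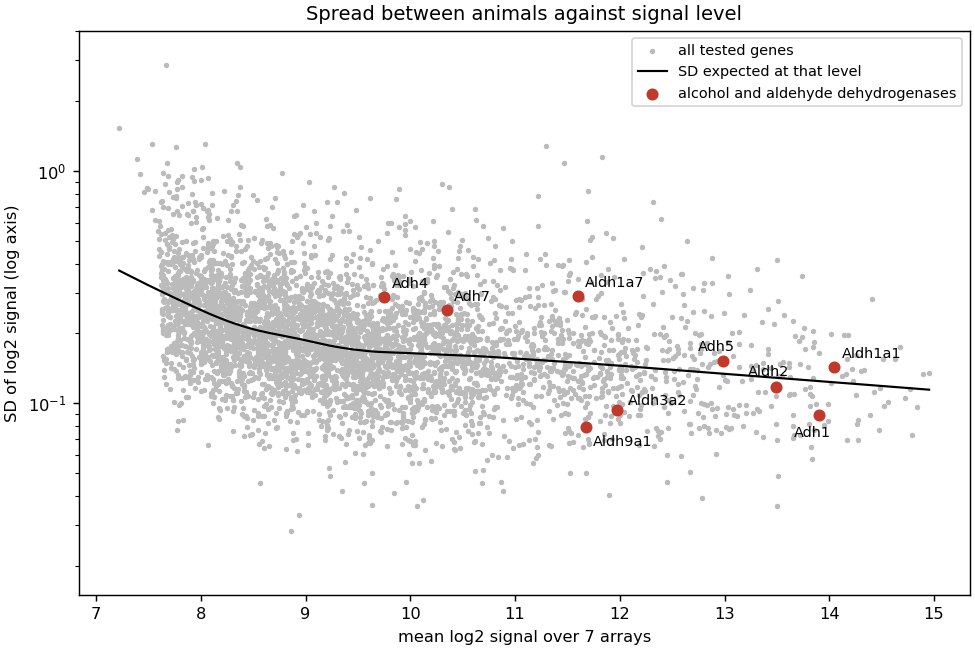
SD of log2 signal over 7 arrays (y axis, log scale) against mean log2 signal (x axis) for all 4481 tested genes in grey, the SD expected at each level as a line, and the 9 dehydrogenase genes in red. Adh4, Adh7 and Aldh1a7 lie above the line and Adh1, Aldh3a2 and Aldh9a1 below it.

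Probe sets of the same gene gave a check on whether a difference between animals was seen by more than 1 set of probes. Over the 7 pairs of probe sets of 1 gene, Pearson's r of log2 signals across the 7 arrays was highest for Adh5, at 0.656 (rho = 0.714, exact permutation p = 0.025, adjusted p = 0.163 over 7 pairs). It was 0.541 for Adh4 (rho = 0.607, exact permutation p = 0.205), and 0.956 without replicates 2 and 3, the arrays farthest from the median. For Aldh3a2 it was 0.464 (rho = 0.464, exact permutation p = 0.304). The 3 probe sets of Aldh2 did not vary together: r was -0.749 between 96057_at and 161997_f_at (rho = -0.679, exact permutation p = 0.046, adjusted p = 0.163), -0.311 between 96058_s_at and 96057_at, and 0.197 between 96058_s_at and 161997_f_at. The first of these was -0.138 without replicates 6 and 7, so it rests on them. None of the 7 pairs had an adjusted p under 0.05.

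**Figure D3:**
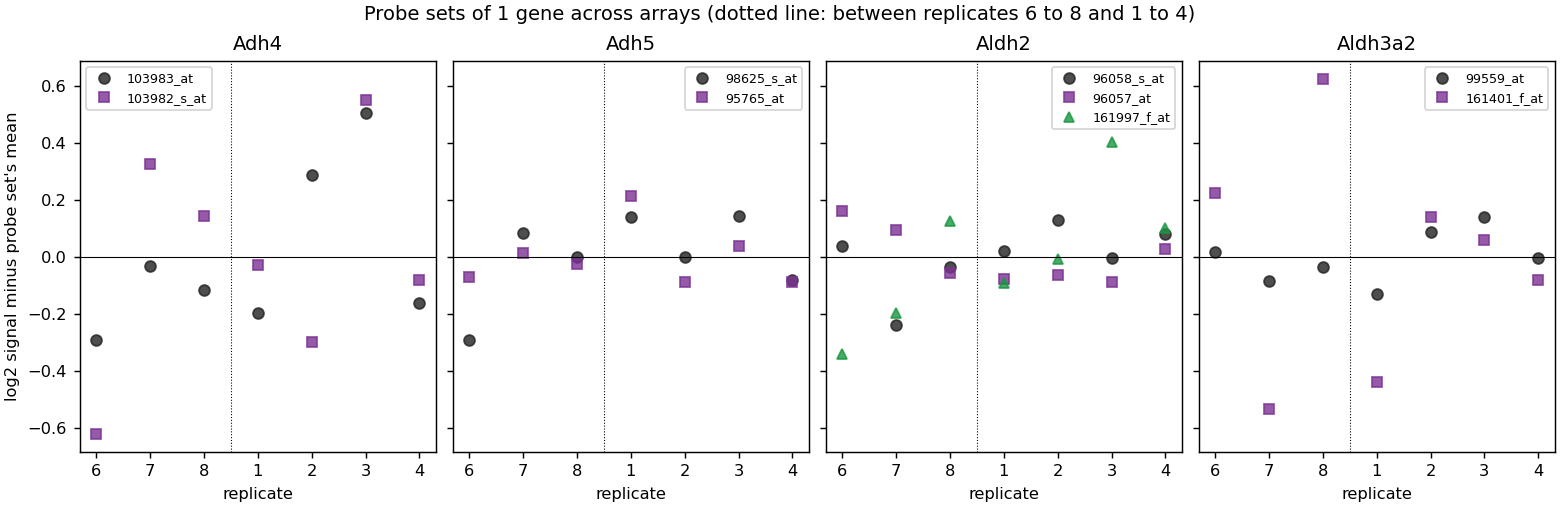
Log2 signal minus the probe set's own mean (y axis) for each probe set of Adh4, Adh5, Aldh2 and Aldh3a2 on each array (x axis, replicates 6 to 8 left of the dotted line and 1 to 4 right of it). The markers of Aldh2 do not follow one another, with 161997_f_at lowest and 96057_at highest on replicate 6.

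The array sets were compared next. Adh1 averaged 14543 on replicates 6 to 8 and 15987 on replicates 1 to 4, a log2 difference of -0.14 (95% interval -0.28 to 0.01, limma adjusted p = 0.740). The exact two-sided permutation p was 0.057, the smallest that 3 arrays against 4 allow. Its log2 SD was 0.06 with the mean of each set removed. Adh1 was the only one of the 9 genes whose sets did not overlap, a count near the share of 7.34% over all tested genes. Of 9 hepatocyte markers, 7 were lower on replicates 6 to 8, but the share of all tested genes lower there was not counted. The log2 difference was -0.19 for Alb, -0.12 for Serpina1b and -0.21 for Apoa1. Ttr and Hnf4a were higher on replicates 6 to 8, by 0.01 and 0.68. Hnf4a had the largest difference of the 9 and the lowest adjusted p (limma, 0.613). With limma, 0 of these 9 markers had an adjusted p under 0.05 for the difference between the sets and 3 had an unadjusted one, against 0% and 6.9% of all tested genes. Of the others, Aldh1a1 averaged 15864 on replicates 6 to 8 and 17918 on replicates 1 to 4, a log2 difference of -0.17, and the brightest Aldh2 probe set averaged 10972 and 12025 on the same sets, a difference of -0.14. The Aldh2 probe sets differed in direction: the difference was 0.12 for 96057_at (95% interval -0.06 to 0.29) and -0.24 for 161997_f_at (95% interval -0.56 to 0.08). Adh7 had 1423 on replicates 6 to 8 and 1244 on replicates 1 to 4, a difference of 0.22. With limma, 0 of 9 genes had an adjusted p under 0.05 for the difference between the sets, against 0% of all tested genes. At an unadjusted p under 0.05 it was 0 of 9, against 6.9%. With quantile normalization, which evens out the brightest genes by construction, the difference of Adh1 was -0.02, that of Aldh1a1 -0.05 and that of Aldh2 -0.04. The labels name no batch for these sets, and what sets them apart was not tested.

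**Figure D4:**
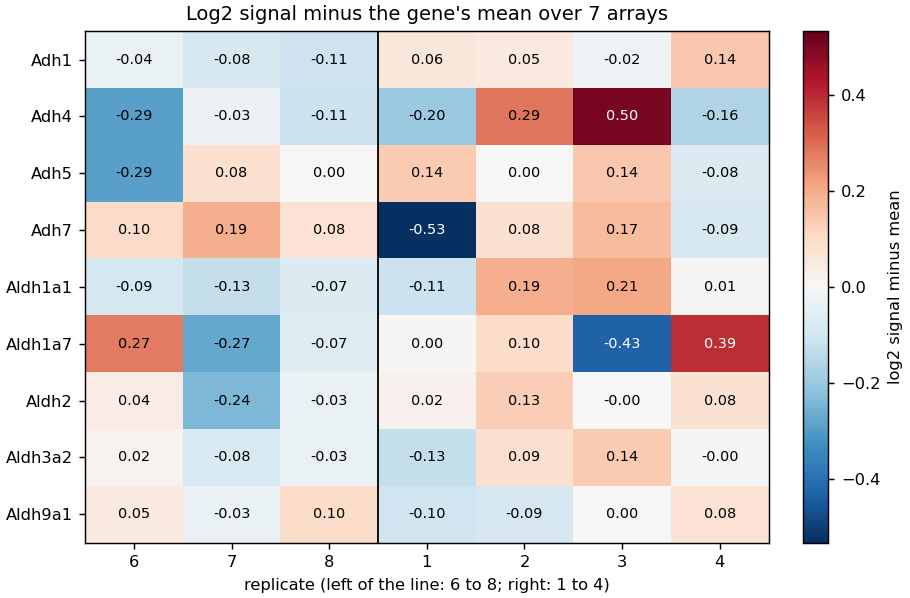
Log2 signal minus the gene's mean over 7 arrays for the 9 genes (rows) on each array (columns, replicates 6 to 8 left of the line and 1 to 4 right of it), with the value printed in each cell and red for above the mean. On replicate 2, 8 of 9 genes are above their means and on replicate 3, 6 of 9 are, with Adh4, Aldh1a1 and Aldh3a2 above on both, as are Adh5 and Adh7. Adh7 is lowest on replicate 1, at -0.53. The brightest probe set stands for each gene.

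Enzymes of successive or alternative steps were compared across the 7 animals in 6 pairs, since Esd, the partner of Adh5 in formaldehyde removal, was not analysed here. Adh1 and Aldh2, which follow each other in ethanol oxidation, had r = 0.668 (rho = 0.714, exact permutation p = 0.067, adjusted p = 0.4 over 6 pairs). With the mean of each array set removed r was 0.365, and within replicates 6 to 8 and 1 to 4 it was 0.415 and 0.510. With the mean of all probe sets of a gene in place of the brightest one, r was 0.401 (exact permutation p = 0.365). Adh1 and Aldh1a1, which follow each other in retinol oxidation, had r = 0.281 (rho = 0.286, exact permutation p = 0.521). Adh1 and Cyp2e1, the microsomal P450 that also oxidises ethanol, had r = 0.422 (rho = 0.536, exact permutation p = 0.350). After each set's mean was taken off, r was -0.905, and it was -0.359 within replicates 6 to 8 and -0.999 within replicates 1 to 4. The pooled value of that pair thus did not hold within the sets. Adh1 and Adh4 had r = -0.028 (rho = -0.143, exact permutation p = 0.975), and -0.80 after each set's mean was taken off. Aldh2 and Aldh3a2 had r = 0.446 (rho = 0.429, exact permutation p = 0.308), and -0.090 without replicates 2 and 7.

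Aldh1a1 and Aldh1a7, whose starts are shown above, had r = -0.222 (rho = 0, exact permutation p = 0.617, adjusted p = 0.740 over 6 pairs). Without replicate 3, which was highest for the one and lowest for the other, r was 0.339, and without replicates 2 and 3, the arrays farthest from the median of Aldh1a1, it was 0.742. The sign of r thus depended on replicate 3, and without that array alone the exact permutation p was 0.542, so no relation was shown either way. In none of the 6 pairs was the adjusted p under 0.05.

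Over all 36 pairs of the 9 genes, a comparison added after the values were seen, 19 had r above 0 and the median r was 0.08. An r of at least 0.8 was found in 2 pairs, or 5.56%, against 1.69% of all pairs of tested genes. Aldh1a1 and Aldh3a2 had r = 0.898 (rho = 0.857, exact permutation p = 0.010, adjusted p = 0.371 over 36 pairs), and 0.945 with set means removed. Within replicates 6 to 8 r was 0.549 and within replicates 1 to 4 it was 0.983. Without replicates 2 and 3, which were highest for both genes, r was 0.587. These values are from the brighter probe set of each gene. The other Aldh3a2 probe set, 161401_f_at, was highest on replicate 8, at 1595, and had 1140 and 1078 on replicates 2 and 3. With the mean of all probe sets of a gene, r of Aldh1a1 and Aldh3a2 was 0.043. Adh4 and Aldh1a1 had r = 0.891 (rho = 0.571, exact permutation p = 0.051, adjusted p = 0.480 over 36 pairs), but -0.119 without replicates 2 and 3, so this relation rests on those arrays. Within replicates 6 to 8 it was -0.396 and within replicates 1 to 4 it was 0.939. These values are from the brighter Adh4 probe set, which had 1051 on replicate 2. The other Adh4 probe set had 549 on that array, its second lowest signal. Adh5 and Aldh1a7 ran against each other, with r = -0.737 (rho = -0.786, exact permutation p = 0.048, adjusted p = 0.480 over 36 pairs) and -0.696 without replicates 3 and 6, the arrays farthest from the median of Adh5. Within replicates 6 to 8 it was -0.986 and within replicates 1 to 4 it was -0.852. These values are from the brighter Adh5 probe set, which was lowest on replicate 6. The other Adh5 probe set, 95765_at, had 4155 on that array and was lowest on replicate 2, at 4103. No pair passed the adjustment over 36 pairs.

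**Figure D5:**
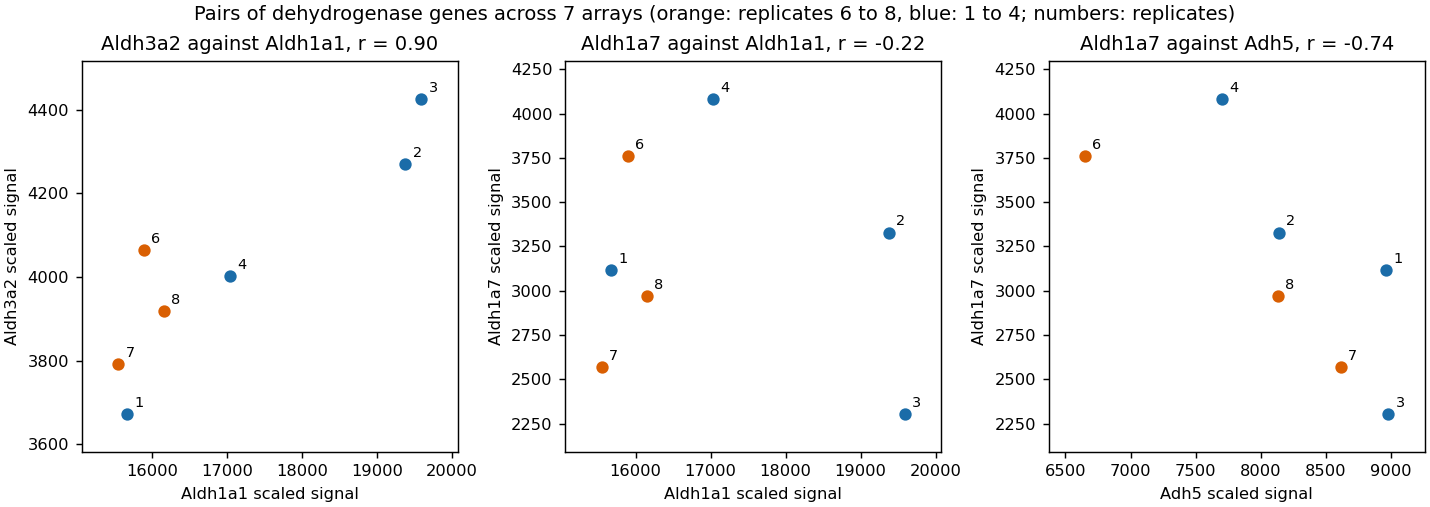
Scaled signals of Aldh3a2 against Aldh1a1, Aldh1a7 against Aldh1a1, and Aldh1a7 against Adh5, 1 point per array, with replicates 6 to 8 in orange and 1 to 4 in blue. Replicates 2 and 3 are highest for both Aldh1a1 and Aldh3a2, and replicate 3 is lowest for Aldh1a7. The brightest probe set stands for each gene.

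The signals were also set against the control 3' to 5' ratios, 18 relations in all. Adh7 had r = -0.738 with the Gapdh ratio (rho = -0.857, exact permutation p = 0.003, adjusted p = 0.057 over 18 relations), and -0.719 without replicates 3 and 7. With set means removed it was -0.674, and within replicates 6 to 8 and 1 to 4 it was -0.784 and -0.769. Aldh1a7 had r = 0.826 with the same ratio (rho = 0.750, exact permutation p = 0.027, adjusted p = 0.210), Aldh2 0.743 (rho = 0.643, exact permutation p = 0.052, adjusted p = 0.210) and Adh1 0.735 (rho = 0.714, exact permutation p = 0.058, adjusted p = 0.210). Without replicates 3 and 7, the arrays with the lowest Gapdh ratios, these were 0.485, 0.372 and 0.826. With the mean of its 3 probe sets in place of the brightest one, r of Aldh2 with the Gapdh ratio was 0.106 (exact permutation p = 0.807). The beta-actin ratio gave other signs for 3 of these genes, with r = 0.526 for Adh7 (rho = 0.357, exact permutation p = 0.343), -0.542 for Aldh2 (rho = -0.429, exact permutation p = 0.131) and -0.385 for Adh1 (rho = -0.286, exact permutation p = 0.353). Aldh9a1 had r = 0.790 with the beta-actin ratio (rho = 0.50, exact permutation p = 0.047, adjusted p = 0.210), and 0.010 without replicates 1 and 2, the arrays with the lowest beta-actin ratios, so this relation rests on them. No relation had an adjusted p under 0.05, and the part of RNA integrity in the spread of these genes was not tested further.

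For each member the 3 tested genes outside the family with the most similar pattern were found by Pearson's r over the 7 arrays. With so many candidates and 7 arrays, such an r is high for any gene: the median over all tested genes of the highest r was 0.970. Adh4 was followed most closely by Wfdc21, at r = 0.992 and at least 0.981 when any 1 array was left out, then by Mars1 (0.964) and Bsg (0.949). Adh7 was followed by Dnajc5 (0.989), Mtmr10 (0.974) and Elane (0.963), though leaving out 1 array brought these to as low as 0.923, 0.775 and 0.697. Aldh9a1 was followed by Eif4e2 (0.980), Entr1 (0.954) and Rttn (0.948). Aldh1a7 was followed by Mfsd14a (0.977), Sprr2b (0.968) and Olfr71 (0.944). The closest to Adh5 were Lemd2 (0.971), Rpl7 (0.960) and Bmi1 (0.952). Below the median of 0.970 were the closest genes of Adh1, which were Apobec1 (0.967), Igfbp1 (0.965) and Tubb6 (0.962), those of Aldh2, which were Rala (0.965, and 0.821 at the lowest without 1 array), Ndufb8 (0.952 and 0.748) and Traip (0.946 and 0.734), those of Aldh1a1, which were Gm4788 (0.964), Prelid1 (0.948) and Wnt1 (0.930), and those of Aldh3a2, which were Chrna7 (0.959), H2-M9 (0.928) and Cmbl (0.923). These likenesses are a description and carry no test.

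Other genes of the same pathways were described by lists. Of 14 other aldehyde dehydrogenases 5 were measured and only Aldh7a1, which acts in lysine breakdown, passed the filter, at 8681 ± 569. Aldh3a1 had 95.1 ± 32.6, Aldh18a1 38.8 ± 21.5 and Aldh1a3 26.8 ± 10.8, near or below the floor. Of 25 other alcohol, retinol and carbonyl oxidoreductases 13 were measured and 12 tested, with Akr1c6 at 16682 ± 1447, the retinol dehydrogenase Rdh7 at 9236 ± 805, the aldehyde reductase Akr1a1 at 6872 ± 639 and Akr1c13 at 3619 ± 765. The carbonyl reductase Cbr1 had the largest log2 SD of that list and had 541 on replicate 7 and 1385 on replicate 4. With limma, 0 of these 12 had an adjusted p under 0.05 for spread, against 0% of all tested genes, and 2 had an unadjusted p under 0.05, against 6.72%.

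Of the ethanol and acetate partners, 3 of 4 measured genes were tested: Cyp2e1 had 25440 ± 2768, catalase (Cat), which also oxidises ethanol, 6319 ± 695, and the carboxylesterase Ces1c 4376 ± 615. Acss1, a mitochondrial acetyl-CoA synthetase, had 72.1 ± 31.2 and was not tested. Of 12 measured retinoid genes 5 were tested, among them the plasma retinol carriers Rbp4 at 18323 ± 1725 and Ttr at 7180 ± 399, with the nuclear receptors Rxrb at 1529 ± 226 and Rxra at 1231 ± 316. Cyp26a1, which degrades retinoic acid and is itself induced by it, ranged from 489 on replicate 4 to 1320 on replicate 2 (limma, unadjusted p = 0.007). In the list drawn up around glutathione-dependent formaldehyde removal, all 6 measured genes were tested, and Esd was not among them. Hagh had 3811 ± 106, Glo1 3406 ± 1188, Gclm 1874 ± 262 and Gclc 1470 ± 81.8. Glo1, which removes methylglyoxal, had 6057 on replicate 8 and 2705 to 3341 on the other 6 arrays. With limma, 0 of the 14 tested genes of these 3 lists had an adjusted p under 0.05 for spread, and at an unadjusted p under 0.05 the counts were 0 of 3, 2 of 5 and 1 of 6, against 6.72% of all tested genes.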

How the data were processed

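Total liver RNA of 7 samples was read on Affymetrix mouse U74Av2 arrays. Per the labels' protocols the arrays were scanned on a Hewlett-Packard GeneArray scanner. The sources used here do not name the signal software or its scaling target. Analysed were the deposited intensities, 1 linear signal per probe set (12488, of which 66 are controls). As deposited, all arrays had nearly the same mean after trimming 2% at each end. Each array was scaled to a trimmed mean of 500.373, floored at 50.04 and log2 transformed. The platform annotation gave 1 symbol to 10833 probe sets, of which 10817 matched RefSeq by gene ID, and the brightest probe set stood for each of 8251 genes.

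The 4481 genes with a mean of at least 200.1 were fitted with limma 3.58.1 in R 4.3.3 (trended, robust), with and without the array set. Variance was tested by an upper-tail F test against the prior, with Benjamini-Hochberg adjustment. Relations were tested by exact permutation of the arrays, two-sided (scipy 1.17.1, Python 3.11.15). The programs were checked on simulated data. Arrays limit precision through their number. No pair of arrays held identical values. The members, gene lists and pairs were chosen with earlier results of these data known. Named genes are all members, the 3 genes most like each, their pair partners, and of each pathway list the 4 brightest and the most variable one. Hnf4a, muscle markers other than Acta1, and stomach markers below the floor, were named after their values were seen. Scaling, floor, filter, probe set rule, limma's prior, array set and left-out arrays were varied.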

Additional observations from a re-analysis of the deposited data

Results flagged for a closer look

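One signal of the dehydrogenases lay apart from the rest of its group: the second probe set of Adh5, 95765_at, had 5056 on replicate 1. The next signal was 4474, and the gap was 0.611 of the whole range, above the critical value of 0.568 in Dixon's test for 7 samples. The brighter Adh5 probe set had 8965 on that array, its second highest signal after 8980 on replicate 3. Chance puts about 1 in 20 groups past this limit, and both ends of all 15 probe sets were tested. The low Adh7 signal on replicate 1, 902, had a ratio of 0.554 and was not past it.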

How the results depend on the processing

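With 1 group of 7 arrays, differences between animals and between arrays cannot be told apart, and low signals are limited by the floor. No paired analysis was possible because all 7 samples form 1 group. The spread test and the array set test called 0 of 9 genes under every alternative run, with lowest adjusted p-values from limma of 0.653 to 0.990 and 0.603 to 0.925. With each array centred on its median, 1 relation to the 3' to 5' ratios passed, that of Adh7 to Gapdh (r = -0.809, exact permutation adjusted p = 0.007, against 0.007 to 0.3 over all alternatives). With quantile normalization, 1 of the 36 member pairs passed, Adh1 and Aldh1a7 (r = 0.949, exact permutation adjusted p = 0.014), against r = 0.582 in the scaled data and adjusted p-values of 0.014 to 0.849 over all alternatives. The cause was not tested.

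With the mean of all probe sets of a gene, the median log2 SD of the members was 0.22 against 0.14, the array set difference of Aldh3a2 was 0.064 and r of Aldh1a1 and Aldh1a7 was 0.068. That rule brings in the dim second probe set of Aldh1a1 and also the second probe set of Aldh3a2, 161401_f_at. The r of Aldh1a1 and Aldh3a2 was then 0.043, and the part of each probe set in this was not tested. Quantile normalization gave r of -0.163 for Adh1 and Aldh1a1 and -0.071 for Adh1 and Cyp2e1, and removing the array set means gave -0.524 and -0.905. Without replicates 1 and 2 together, an alternative chosen after seeing the data, the array set difference of Aldh9a1 was -0.0033. Leaving out 1 array at a time, the array set difference of Aldh1a7 ran from -0.188 to 0.088 (without replicates 3 and 7), r of Adh1 and Adh4 from -0.157 to 0.210 (without replicates 2 and 4), and r of Aldh1a1 and Aldh1a7 from -0.458 to 0.339 (without replicates 7 and 3). In all, 115 recomputed counts and medians kept their value within the limits set, 2 gained a call and 1 moved. Of the values for single genes and pairs, 483 kept their direction, call or spread, 13 changed sign and 8 SDs moved by more than the limit.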
